A study of Mus musculus with 8 samples.

Results

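The transcripts of p53 (gene symbol Trp53) and of 32 genes of its pathway were measured by RNA-seq in haemogenic endothelium, the embryonic endothelium from which the earliest blood cells bud. The 33 genes were taken by symbol from a count table of 41128 genes, and all 33 were found there. Of these, 32 passed the filter on low counts, as did 14179 genes in the whole table. Trp73, which encodes the p53 relative p73, had a count of 0 in all 8 libraries and was not tested. With 10215792 to 19552380 counts a library, 3 counts correspond to 0.150 to 0.287 CPM (counts scaled to a common library size), so a level up to that size could have been missed through counting error alone.

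The cells were made in culture from mouse embryonic stem (ES) cell lines of strain C57BL/6. The 4 groups were Hdac2 lox/lox cells given 4-hydroxytamoxifen (4OHT), Hdac2 lox/lox cells given ethanol (EtOH, its solvent), Hdac1 lox/lox cells given 4OHT and Hdac1 lox/lox cells given EtOH, with 2 libraries each. Hdac1 and Hdac2 encode histone deacetylases that remove acetyl groups from histones and from other proteins, p53 among them. A lox/lox allele has lox sites around part of the gene, and 4OHT is commonly used to switch on a tamoxifen-dependent Cre recombinase, although the labels name no Cre. All 4 groups carry a lox-flanked gene, so no wild-type line was set beside them, and cells without lox sites were not given 4OHT. Each genotype is represented by the line the labels name, and the labels do not say how many clones it holds. They also do not say that replicates were separate cultures, so p-values measure only the spread between these libraries, which may be technical.

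p53 is a transcription factor that is made continuously and degraded continuously, because MDM2, a ubiquitin ligase and itself a p53 target, marks it for destruction with the help of MDM4. When DNA damage or other stress activates kinases such as ATM and CHK2, p53 escapes degradation and switches on genes that stop the cell cycle, repair DNA, adjust metabolism or start apoptosis. The p53 protein is controlled mostly after translation, so the level of Trp53 RNA is not a measure of p53 activity. Mouse embryos that lack Mdm2 die through unrestrained p53, and early blood-forming cells are among the cells lost when the brake is weakened.

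p53 binds DNA as a tetramer over a pair of decamers, each called a half-site. Promoter sequences were read from RefSeq (GRCm38.p6, 250 bases before to 50 bases after each start site), where 25 of the 33 genes had an entry. Ddb2, Perp, Pmaip1, Rrm2b, Tnfrsf10b, Trp53inp1, Xpc and Zmat3 had none. Half-sites on either strand lay in 11 of 35 promoters of the 25 genes (31.4%), against 8.36% of 32851 promoters of the same length. The 11 promoters belonged to 10 genes, namely Aen, Bax, Ccng1, Cdkn1a, Ei24, Gtse1, Mdm2, Polk, Sesn1 and Trp53. Both Aen promoters hold the same half-site, since they overlap, so it is counted in each. A pair of half-sites with 0 to 13 bases between them was found in 1 of the 35 promoters (2.86%), that of Cdkn1a, against 0.0731% of all promoters. The cell cycle homology element, spelled TTTGAA, was in 17.1% of the promoters of these genes and 17.9% of all, and the CCAAT box in 48.6% and 37.4%, both strands searched. The windows below are shown because they place the letters of the p53 element beside the start sites of genes whose levels are described later, with the half-site in capitals. They run 5′ to 3′ on the strand of the gene. The Cdkn1a window spans chr17:29090882-29090961 on the plus strand, Mdm2 chr10:117710911-117710968 on the minus strand, Ccng1 chr11:40755438-40755495 on the minus strand, Bax chr7:45467066-45467123 on the minus strand, Trp53 chr11:69580260-69580317 on the plus strand and Sesn1 chr10:41887242-41887299 on the plus strand, before a start site inside the gene.
Cdkn1a: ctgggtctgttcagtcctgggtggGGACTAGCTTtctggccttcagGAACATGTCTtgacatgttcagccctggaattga
Mdm2: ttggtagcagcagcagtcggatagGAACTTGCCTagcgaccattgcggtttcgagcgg
Ccng1: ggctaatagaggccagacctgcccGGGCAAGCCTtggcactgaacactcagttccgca
Bax: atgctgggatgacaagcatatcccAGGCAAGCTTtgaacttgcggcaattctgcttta
Trp53: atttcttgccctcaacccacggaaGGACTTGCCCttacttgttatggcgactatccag
Sesn1: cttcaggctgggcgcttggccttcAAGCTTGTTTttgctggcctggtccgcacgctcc
The 2 marked half-sites of Cdkn1a are separated by 12 bases, and the pair lies at -73 to -42 from the start site. Only exact matches to the pattern RRRCWWGYYY were counted and marked, where R is A or G, W is A or T and Y is C or T. A near match, such as the bases right after the pair in Cdkn1a, was not counted and stays in small letters. In Bax the half-site shares bases with a TTTGAA element. A match is a description of letters, not a bound site, and binding of p53 was not measured in these libraries.

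Before the results, some properties of the libraries matter. Each library of the Hdac2 line was nearest, over all tested genes, to the other library of its own group. In the Hdac1 line none was: 4OHT replicate 1 was nearest to EtOH replicate 2, and 4OHT replicate 2 to EtOH replicate 1. The targeted genes did not check the labels. Hdac2 had 149.0 and 149.4 CPM in 4OHT libraries of the Hdac2 line, against 165 and 151 CPM in its EtOH libraries, and the table counts whole genes, so loss of a lox-flanked part need not show. Hdac1 had 6.99 and 7.12 CPM in 4OHT libraries of the Hdac1 line, against 5.78 and 5.60 CPM in its EtOH libraries, while Gm10093, which is 99.4% identical to Hdac1 over 70.9% of its transcript, averaged 126 CPM. Endothelial markers were abundant, with a summed level of 3197 to 8129.8 CPM over 12 genes. Of 6 markers of pluripotent cells, Pou5f1, Nanog, Dppa5a and Esrrb were at or under 1.05 CPM in all libraries. The other 2, Zfp42 and Klf4, passed the filter on low counts, and the 6 markers summed to 15.7 to 37.4 CPM a library.

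Compared per length of exon, Ccng1 was the most abundant of the 33 genes, at 241 CPM per kb averaged over the 8 libraries. Ccng1 (chr11:40748552-40755311 in mm10, minus strand) encodes cyclin G1, which recruits a phosphatase to MDM2. Cdkn1a followed at 87.4, Phlda3 at 84.4, Bax at 67.3 and Trp53 itself at 56.2 CPM per kb. The lowest tested gene was Ddb2, a DNA damage-binding protein of nucleotide excision repair, at 0.797 CPM per kb. Ddb2 lies under Acp2 on the opposite strand, which averaged 42.9 CPM, and no source used here says whether reads were counted by strand, so its values are uncertain. In CPM without length scaling, 14 of the 32 tested genes averaged 100 or more and 3 averaged under 10. The genes also differed in how steady they were: the highest library exceeded the lowest by 1.20-fold for Xpc and Aen, by a median of 2.86-fold, and by 8.06-fold for Gdf15.

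**Figure D1:**
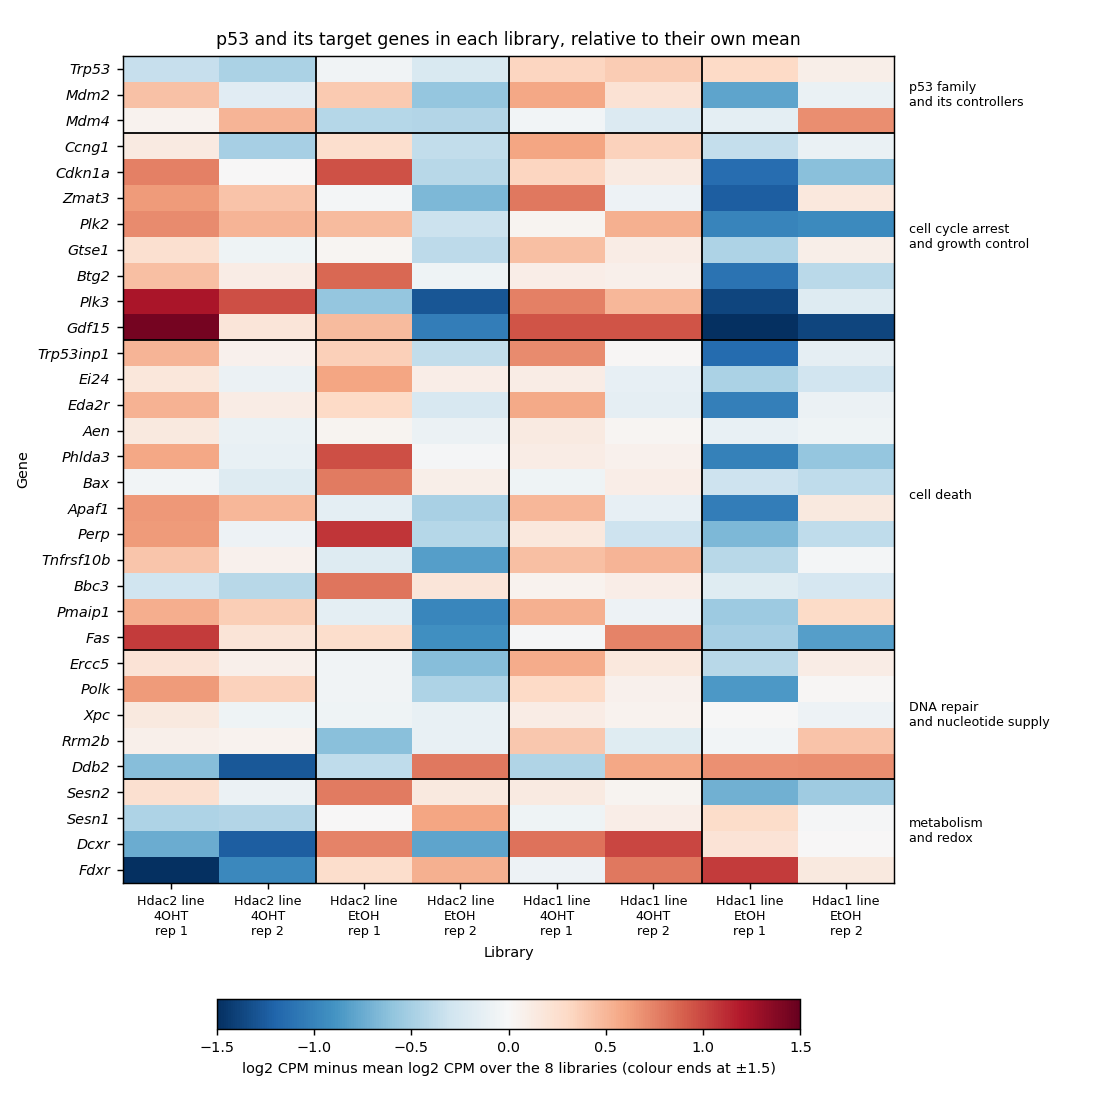
Levels of the 32 tested genes (rows, grouped by role) in the 8 libraries (columns), as log2 CPM minus the gene's mean over the libraries; red is above and blue below that mean. The column of Hdac1 lox/lox EtOH replicate 1 is mostly blue, and it was the lowest library for 17 of the 32 genes.

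In the Hdac2 line, 4OHT was followed by a higher level of Plk3 and by lower levels of Bbc3, Sesn1 and Fdxr, while Cdkn1a, the best-known p53 target, and Trp53 itself did not pass the test. These 4 of 32 genes were called at an adjusted p under 0.05 in edgeR's quasi-likelihood fit of the whole table, with p-values adjusted by Benjamini-Hochberg. That is 12.5% of the 32, against 36.1% of all 14179 tested genes called in the same comparison. The share was thus lower than the background. By direction, 1 of the 32 rose, against 18.9% of all genes, and 3 fell, against 17.2% of all genes. The median log2 fold change was 0.16 over the 32 genes and -0.02 over all genes. Its sign rested on single libraries: it was -0.026 without 4OHT replicate 1 of this line and -0.029 without EtOH replicate 2, but 0.37 without 4OHT replicate 2 and 0.53 without EtOH replicate 1. Without any one of the 4 libraries of this line, 0 of the 32 genes were called, with 5 to 12 at an unadjusted p under 0.05, and 0 to 826 genes were called in the whole table. Without either EtOH library of the Hdac1 line, which share the estimate of the spread, 9 were called, including all 4.

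Trp53 (chr11:69580359-69591873, plus strand) had 175 and 161 CPM in 4OHT libraries of the Hdac2 line, against 214 and 190.4 CPM in its EtOH libraries. Both 4OHT libraries were below both EtOH libraries, by a log2 fold change of -0.27 ± 0.16 (SE), with an adjusted p of 0.196. A processed copy, Trp53-ps, averaged 2.67 CPM and is 94.9% identical over 58.4% of the Trp53 transcript, so few reads could move between them. Mdm2 (chr10:117688888-117710758, minus strand), the ligase that removes p53, had 283 and 186 CPM in 4OHT libraries and 272 and 139.7 CPM in EtOH libraries, which overlapped. Its log2 fold change was 0.19 ± 0.37, with a 95% interval of -0.68 to 1.05. Mdm4 (chr1:132959484-133030561, minus strand), the partner of MDM2 that blocks the activating part of p53, had 45.4 and 62.4 CPM in 4OHT libraries and 32.7 and 32.3 CPM in EtOH libraries. Both 4OHT libraries were above both EtOH libraries, and the log2 fold change of 0.73 ± 0.28 had an adjusted p of 0.0762.

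Among the 8 genes of cell cycle arrest and growth control, Plk3 was the 1 called. Plk3 (chr4:117128655-117133963, minus strand), a polo-like kinase that responds to stress, had 19.5 and 16.4 CPM in 4OHT libraries of the Hdac2 line, against 5.57 and 3.44 CPM in its EtOH libraries. The 4OHT libraries both stood well above the EtOH libraries, and the log2 fold change was 1.97 ± 0.41 (adjusted p 0.0142). Cdkn1a (chr17:29090979-29100722, plus strand) encodes p21, the inhibitor of cyclin-dependent kinases through which p53 halts the cell cycle. It had 477 and 282 CPM in 4OHT libraries and 543 and 212 CPM in EtOH libraries. The EtOH libraries held both the highest and the lowest of these values, and the log2 fold change was 0.01 ± 0.43 and the 95% interval ran between -1.002 and 1.01. Its sign was negative under other scalings, at -0.13 with upper quartile scaling and -0.11 with library size only. Ccng1 had 897 and 579 CPM in 4OHT libraries and 978 and 634 CPM in EtOH libraries, which overlapped, with a log2 fold change of -0.13 ± 0.28. Of the other 5, Zmat3, an RNA-binding protein, Plk2, a relative of Plk3, Gdf15, a secreted stress cytokine, and Gtse1, a regulator of p53 localisation, had log2 fold changes of 0.26 to 0.99, and Btg2, an antiproliferative gene, of -0.18.

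Of the 12 cell death genes, Bbc3 was called and fell. Bbc3 (chr7:16309616-16318205, plus strand) encodes PUMA, a BH3-only protein that neutralises the survival members of the BCL2 family. It had 44.8 and 41.4 CPM in 4OHT libraries of the Hdac2 line, against 96.4 and 62.4 CPM in its EtOH libraries. Both 4OHT libraries were below both EtOH libraries, with a log2 fold change of -0.88 ± 0.21 (adjusted p 0.0201). Bax (chr7:45461695-45466898, minus strand), the pore-forming protein of the mitochondrial membrane, had 100.2 and 90.4 CPM in 4OHT libraries and 177 and 109 CPM in EtOH libraries. Its groups did not overlap either, and the log2 fold change of -0.59 ± 0.23 had an adjusted p of 0.0760. Pmaip1 (chr18:66458604-66465550, plus strand) encodes NOXA, another BH3-only protein, and had 19.9 and 17.6 CPM in 4OHT libraries and 12.3 and 6.88 CPM in EtOH libraries. It ran opposite to Bbc3 in the order of its libraries, with a log2 fold change of 0.95 ± 0.38 and an adjusted p of 0.0827. The death receptor gene Tnfrsf10b had 78.1 and 61.3 CPM in 4OHT libraries and 50.9 and 33.04 CPM in EtOH libraries (adjusted p 0.0515). Apaf1, the scaffold of the apoptosome, had 155 and 139 CPM in 4OHT libraries and 89.3 and 70.4 CPM in EtOH libraries (adjusted p 0.0971). Both genes had the 4OHT libraries above the EtOH libraries without passing the threshold. The other 7, Fas, Perp, Aen, Eda2r, Ei24, Phlda3 and Trp53inp1, overlapped between 4OHT and EtOH.

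Both other genes called in the Hdac2 line belong to metabolism and redox control. Sesn1 (chr10:41810574-41908424, plus strand), a sestrin that restrains mTORC1 signalling, had 17.8 and 18.2 CPM in 4OHT libraries, against 24.8 and 37.2 CPM in EtOH libraries, a log2 fold change of -0.78 ± 0.23 (adjusted p 0.0347). Fdxr (chr11:115268024-115277050, minus strand), a mitochondrial reductase that feeds electrons to iron-sulphur cluster and steroid synthesis, had 2.56 and 4.44 CPM in 4OHT libraries, against 10.4 and 12.5 CPM in EtOH libraries. In both genes every 4OHT library was below every EtOH library, and for Fdxr the log2 fold change was -1.71 ± 0.45 (adjusted p 0.0243). Sesn2, the other sestrin, had 100.3 and 79.7 CPM in 4OHT libraries and 146 and 94.3 CPM in EtOH libraries, which overlapped. Dcxr, a carbonyl reductase, had 10.6 and 7.46 CPM in 4OHT libraries and 29.6 and 10.2 CPM in EtOH libraries, which overlapped as well, and its log2 fold change of -1.15 ± 0.45 had an adjusted p of 0.0752. Of the 5 genes of DNA repair and nucleotide supply, 0 were called in this line by edgeR's quasi-likelihood test, DESeq2 or limma-voom. Polk, a translesion polymerase, was the 1 with an unadjusted p under 0.05 in edgeR's test. It was called higher when only the groups compared were fitted.

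**Figure D2:**
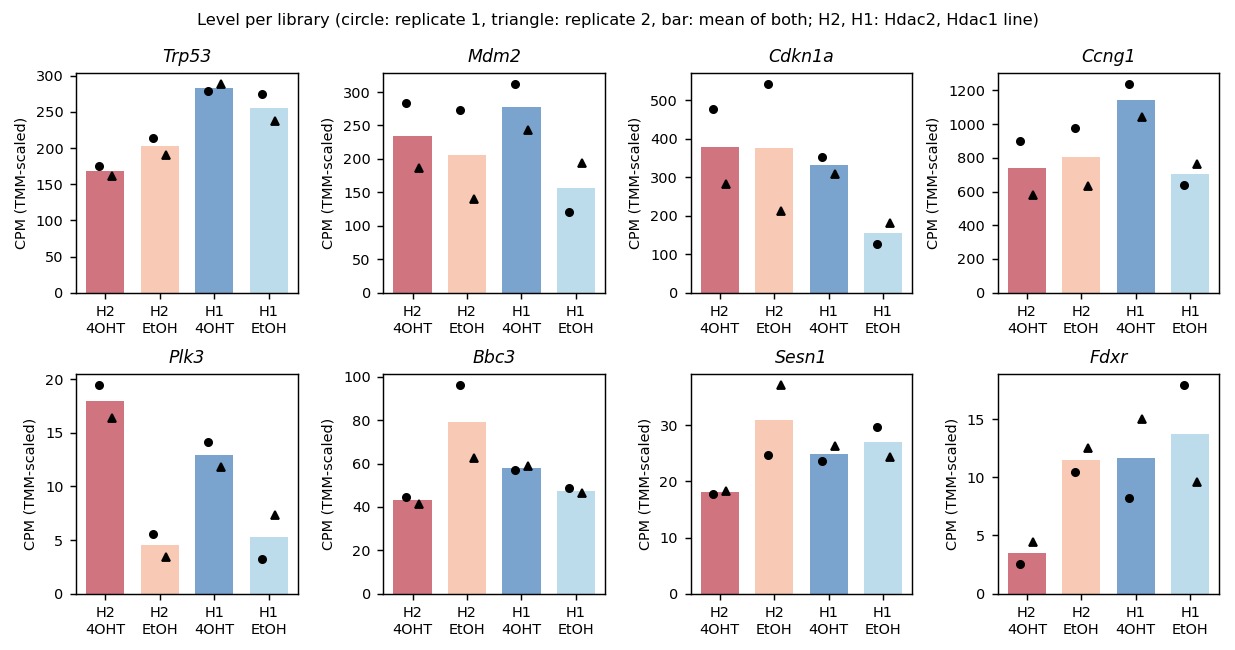
TMM-scaled CPM (vertical axis, from 0) of 8 genes in each group, with the Hdac2 line as H2 and the Hdac1 line as H1; bars are means of 2 libraries, circles replicate 1 and triangles replicate 2. Plk3 was higher and Bbc3, Sesn1 and Fdxr lower in both 4OHT libraries of the Hdac2 line than in both of its EtOH libraries, and the Cdkn1a libraries of that line were spread over 212 to 543 CPM.

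Without regard to the test, 10 of the 32 genes had both 4OHT libraries of the Hdac2 line above both EtOH libraries, and 6 had both below. Over all tested genes the shares were 38.6% above and 39.7% below. The 10 were Mdm4, Pmaip1, Plk2, Plk3, Zmat3, Tnfrsf10b, Rrm2b, Polk, Apaf1 and Ercc5. The 6 were Trp53, Bax, Bbc3, Sesn1, Ddb2 and Fdxr. Cell composition moved with the same comparison, and its part in the values above was not tested. Erythroid markers (9 genes) summed to 382 and 237 CPM in 4OHT libraries and 1777 and 1679 CPM in EtOH libraries, endothelial markers (12 genes) to 6262 and 8129.8 CPM in 4OHT libraries and 3197 and 3497 CPM in EtOH libraries, and smooth muscle markers (6 genes) to 6136 and 4088 CPM in 4OHT libraries and 2023 and 1384 CPM in EtOH libraries. Of these lists, 6 of 9 erythroid markers were called lower, 6 of 12 endothelial markers higher and 1 lower, and 4 of 6 smooth muscle markers higher. At much lower levels, 7 leukocyte markers summed to 62.0 and 49.1 CPM in 4OHT libraries and 25.0 and 12.9 CPM in EtOH libraries, with 5 of 7 called higher. Likewise, 7 cardiomyocyte markers summed to 20.6 and 30.1 CPM in 4OHT libraries and 6.48 and 3.72 CPM in EtOH libraries, with 3 of 5 tested called higher. Beside these marker counts, 18.9% of all tested genes were called higher and 17.2% lower. In such bulk samples, fewer cells of a type and less RNA per cell cannot be told apart.

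Most of the p53 targets in the Hdac1 line were higher with 4OHT in both libraries, but none passed the test. By edgeR's quasi-likelihood test 0 of the 32 genes were called, as were 0% of all tested genes. At an unadjusted p under 0.05 there were 10, namely Cdkn1a, Ccng1, Sesn2, Plk2, Plk3, Btg2, Trp53inp1, Phlda3, Gdf15 and Tnfrsf10b, all with a log2 fold change above 0. DESeq2 called 1, Plk2, and limma-voom called 0. Both 4OHT libraries were above both EtOH libraries for 23 of the 32 genes, against 15.8% of all tested genes, and below for 1, Ddb2, against 15.4%. The genes also moved together between libraries of 1 group, as described below. The 23 are therefore not independent observations, and the comparison rests on 2 libraries a group. The log2 fold change was above 0 for 27 of the 32, with a median of 0.55, against a median of -0.02 over all genes. Leaving out 1 library of this line at a time kept 28 or 29 of the 32 above 0, while the median ran between 0.32 without EtOH replicate 1 and 0.80 without EtOH replicate 2, and was 0.33 without 4OHT replicate 1. Smooth muscle markers (6 genes) summed to 2502 and 2169 CPM in 4OHT libraries and 1603 and 1527 CPM in EtOH libraries of this line, with 5 of 6 log2 fold changes above 0 and a median of 0.51. Erythroid markers (9 genes) summed to 168 and 445 CPM in 4OHT libraries and 952 and 297 CPM in EtOH libraries, with 9 of 9 below 0 and a median of -0.87. By edgeR's test 0 genes of either list were called, and 0 had an unadjusted p under 0.05. Endothelial markers (12 genes) summed to 6242 and 4715 CPM in 4OHT libraries and 4310 and 6064 CPM in EtOH libraries. Of these, 6 had a log2 fold change above 0 and 6 below, and 0 were called. By the same test, 3 of the 12 had an unadjusted p under 0.05, as did 1 of 7 leukocyte markers and 947 of all 14179 genes. The part of these markers in the values of the p53 targets was not tested.

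Cdkn1a had 353 and 309.8 CPM in 4OHT libraries of the Hdac1 line, against 127 and 182 CPM in its EtOH libraries. The groups did not overlap, and the log2 fold change was 1.10 ± 0.44, with a 95% interval of 0.08 to 2.12 and an adjusted p of 0.733. Mdm2 had 312 and 243 CPM in 4OHT libraries and 120.2 and 194 CPM in EtOH libraries, a log2 fold change of 0.82 ± 0.38 (adjusted p 0.757). Ccng1 had 1239 and 1043 CPM in 4OHT libraries and 639 and 763 CPM in EtOH libraries, a log2 fold change of 0.70 ± 0.28 (adjusted p 0.733). For Mdm2 and Ccng1, too, the lower 4OHT library was above the higher EtOH library. Plk2, which helps duplicate centrioles, had 148 and 209.7 CPM in 4OHT libraries, against 72.5 and 74.4 CPM in EtOH libraries. Its EtOH libraries lay close together, and the log2 fold change was 1.28 ± 0.28 (adjusted p 0.712). Gdf15 had the largest log2 fold change of the 32, 2.41 ± 0.59 (adjusted p 0.712), at low levels of 3.77 and 3.76 CPM in 4OHT libraries and 0.655 and 0.750 CPM in EtOH libraries.

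Trp53 had 278 and 289 CPM in 4OHT libraries of the Hdac1 line and 274 and 237 CPM in its EtOH libraries, a log2 fold change of 0.15 ± 0.15 with a 95% interval of -0.21 to 0.51. Plk3 had 14.1 and 11.8 CPM in 4OHT libraries and 3.22 and 7.30 CPM in EtOH libraries, a log2 fold change of 1.29 ± 0.39 (adjusted p 0.712). Bbc3 had 56.9 and 58.8 CPM in 4OHT libraries and 48.6 and 46.4 CPM in EtOH libraries, and Bax had 98.6 and 111 CPM in 4OHT libraries and 83.2 and 79.3 CPM in EtOH libraries. In all 4 of these genes both 4OHT libraries were above both EtOH libraries, with adjusted p-values of 0.842 for Bbc3 and 0.807 for Bax. Sesn1, at 23.6 and 26.3 CPM in 4OHT libraries and 29.7 and 24.4 CPM in EtOH libraries, and Fdxr, at 8.24 and 15.0 CPM in 4OHT libraries and 17.95 and 9.55 CPM in EtOH libraries, overlapped between the groups. Mdm4 overlapped too, at 42.6 and 38.2 CPM in 4OHT libraries and 39.6 and 70.8 CPM in EtOH libraries, and so did Pmaip1, at 19.7 and 12.9 CPM in 4OHT libraries and 9.28 and 16.5 CPM in EtOH libraries.

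**Figure D3:**
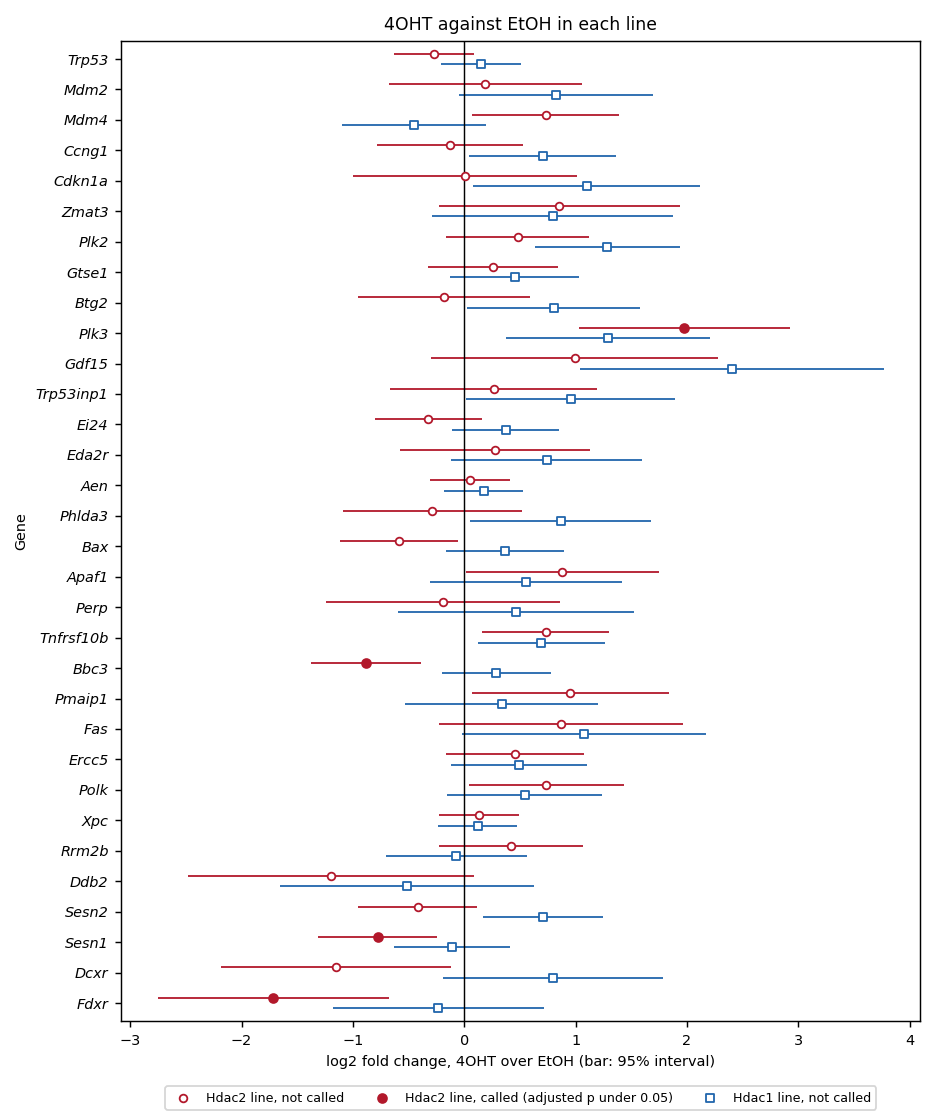
Log2 fold changes, 4OHT over EtOH (horizontal axis), of the 32 tested genes in the Hdac2 line (red circles) and the Hdac1 line (blue squares), with 95% intervals as bars; filled symbols were called at an adjusted p under 0.05. Filled symbols are those of Plk3, Bbc3, Sesn1 and Fdxr in the Hdac2 line, and 27 of the 32 squares lie right of 0.

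The response to 4OHT was compared between the lines by the difference of the log2 fold changes, Hdac2 line minus Hdac1 line. By edgeR's quasi-likelihood test 0 of the 32 genes were called for this difference, against 0.0282% of all tested genes, 0.0141% positive and 0.0141% negative. At an unadjusted p under 0.05 there were 8 of the 32, against 3973 of all 14179 tested genes, so this count is no result about the list. Of the 8, Mdm4 was positive and Bax, Bbc3, Sesn2, Phlda3, Ei24, Dcxr and Fdxr were negative. DESeq2 called 3, namely Bbc3, Dcxr and Sesn2, all negative, and limma-voom called 0. Without Hdac1 lox/lox EtOH replicate 1, edgeR called 3, with Mdm4 positive and Bbc3 and Fdxr negative, and 3740 genes were called in the whole table. Bbc3 had the smallest adjusted p of the 32, 0.0868, with a difference of -1.17 ± 0.30. For Cdkn1a the difference was -1.09 ± 0.62, with a 95% interval of -2.52 to 0.34, and for Plk3, whose fold change was positive in both lines, 0.68 ± 0.56. The median difference was -0.64 over the 32 genes and -0.01 over all genes, and it was -0.21 without Hdac2 lox/lox EtOH replicate 1 and -0.36 without Hdac2 lox/lox 4OHT replicate 2. Trp53, Bax and Bbc3 were lower in both 4OHT libraries of the Hdac2 line and higher in both 4OHT libraries of the Hdac1 line than in the EtOH libraries of the same line. Plk2, Plk3, Tnfrsf10b, Polk and Ercc5 were higher in both 4OHT libraries of both lines. Ercc5 encodes an endonuclease of nucleotide excision repair. The shares of all tested genes with either pattern across both lines were not computed, so these names are no result about the list.

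The lines also differed without 4OHT. In the EtOH libraries, 2 of the 32 genes, Plk2 and Sesn2, were higher in the Hdac2 line than in the Hdac1 line by edgeR's quasi-likelihood test and 0 lower, which is 6.25% of the 32, against 9.33% of all tested genes, with 2.91% higher and 6.42% lower. Sesn2 (chr4:132492032-132510501, minus strand) had 146 and 94.3 CPM in the Hdac2 line, against 51.6 and 58.9 CPM in the Hdac1 line, a log2 fold change of 1.12 ± 0.23 (adjusted p 0.0330). Plk2 (chr13:110395044-110400844, plus strand) had 201 and 116 CPM in the Hdac2 line, against 72.5 and 74.4 CPM in the Hdac1 line, a log2 fold change of 1.11 ± 0.28 (adjusted p 0.0490). Plk2 was not called by limma-voom (adjusted p 0.0534) or with scaling by library size only (adjusted p 0.0525). For both genes the lower library of the Hdac2 line was above the higher library of the Hdac1 line. Without either EtOH library of the Hdac2 line, either 4OHT library of the Hdac2 line or Hdac1 lox/lox EtOH replicate 2, 0 of the 32 were called, with 3 to 14 at an unadjusted p under 0.05, and without Hdac1 lox/lox EtOH replicate 1 they were Sesn2, higher, and Mdm4, lower. The fit to the EtOH libraries alone called 0, with 9 of the 32 at an unadjusted p under 0.05.

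Phlda3, which keeps the kinase AKT off the membrane, came next, with 238 and 120.4 CPM in EtOH libraries of the Hdac2 line and 60.2 and 81.6 CPM in those of the Hdac1 line, a log2 fold change of 1.34 ± 0.35 (adjusted p 0.0528). Cdkn1a, with 543 and 212 CPM in the Hdac2 line and 127 and 182 CPM in the Hdac1 line, had a log2 fold change of 1.29 ± 0.44 (adjusted p 0.0932). In all, 9 of the 32 genes had both EtOH libraries of the Hdac2 line above both of the Hdac1 line, against 29.9% of all tested genes, and 3, Trp53, Mdm4 and Rrm2b, had both below, against 30.3%. Trp53 had 214 and 190.4 CPM in the Hdac2 line and 274 and 237 CPM in the Hdac1 line, a log2 fold change of -0.34 ± 0.16 (adjusted p 0.172). Erythroid markers summed to 1777 and 1679 CPM in the Hdac2 line and to 952 and 297 CPM in the Hdac1 line, both with EtOH. Of these 9 markers, 9 had a log2 fold change above 0, with 1 called higher. Of 12 endothelial markers, 11 were below 0, with 1 called higher and 1 lower. Of 5 tested cardiomyocyte markers, 5 were below 0, with 2 called lower. Over all tested genes 9.33% were called. The part of these markers in the differences between the lines was not tested.

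The p53 targets also moved together between libraries of 1 group. In the EtOH group of the Hdac2 line, replicate 1 exceeded replicate 2 for 28 of the 32 genes, against 49.8% of all tested genes. The median ratio was 1.54-fold, and 21 of the 32 (65.6%) differed by more than 1.5-fold in either direction, against 15.1% of all genes. Cdkn1a at 543 and 212 CPM, Perp at 124 and 44.0 CPM and Dcxr at 29.6 and 10.2 CPM, replicate 1 first, show its size. Perp encodes a membrane protein of desmosomes and apoptosis. In the 4OHT group of the Hdac2 line replicate 1 exceeded replicate 2 for 29 of the 32, with 25.0% beyond 1.5-fold, against 12.6% of all genes. In the 4OHT group of the Hdac1 line it did so for 22, and 25.0% differed beyond 1.5-fold, against 21.4% of all genes. In the EtOH group of the Hdac1 line, replicate 2 was the higher for 24 of the 32, and 34.4% differed beyond 1.5-fold, against 32.5% of all genes. There, Zmat3 had 75.5 CPM in replicate 1 and 198 CPM in replicate 2, Trp53inp1, a p53-induced nuclear protein, 108 and 219 CPM, and Apaf1 48.3 and 109 CPM.

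**Figure D4:**
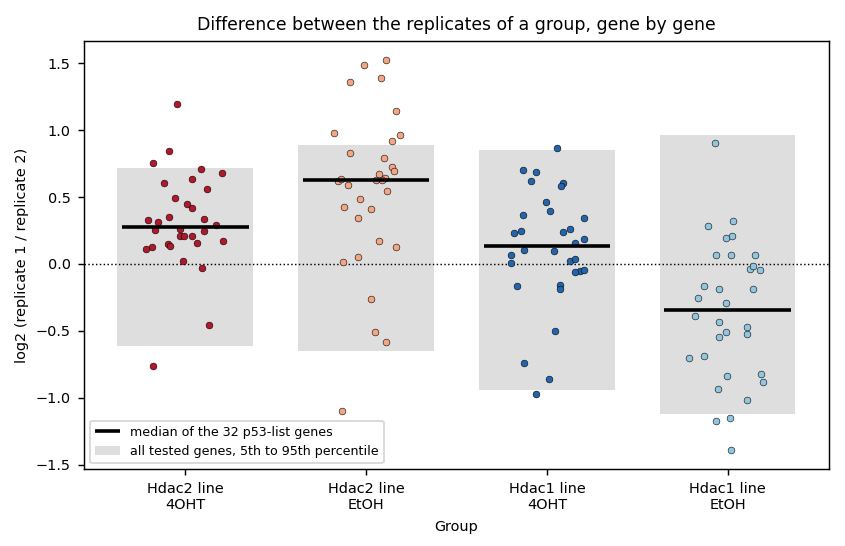
Log2 ratio of replicate 1 to replicate 2 (vertical axis) for each of the 32 genes (points) in the 4 groups, with the median as a black line and the range from the 5th to the 95th percentile of all tested genes in grey. In the EtOH group of the Hdac2 line 28 of the 32 points lie above 0, with a median ratio of 1.54-fold, and in the EtOH group of the Hdac1 line 24 lie below 0.

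The summed level of the 33 genes was 4616 and 3471 CPM in 4OHT libraries of the Hdac2 line, 4772 and 3002 CPM in its EtOH libraries, 4901 and 4111 CPM in 4OHT libraries of the Hdac1 line and 2525 and 3305 CPM in its EtOH libraries. The lowest sum belonged to Hdac1 lox/lox EtOH replicate 1, which was also the lowest library for 17 of the 32 tested genes, against 12% of all genes. Hdac2 lox/lox 4OHT replicate 1 was the highest library for 9 of the 32, against 13% of all genes. Hdac2 lox/lox EtOH replicate 1 was highest for 8, against 17.2%, and Hdac1 lox/lox 4OHT replicate 1 for 7, against 8.22%. By contrast, Hdac2 lox/lox 4OHT replicate 2 was highest for 0, against 16.7%. Within the Hdac2 line the distance between the EtOH replicates was larger than that between 4OHT and EtOH means for several of the best-known targets, Cdkn1a, Mdm2, Ccng1, Perp and Phlda3 among them.

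Other genes of the pathway were taken from lists by role. Of 12 tested kinases and sensors upstream of p53, 2 (16.7%) were called in the Hdac2 line, a lower share than the 36.1% of all tested genes. Mdc1, an adaptor at broken DNA, had 179 and 219 CPM in 4OHT libraries, against 84.8 and 122 CPM in EtOH libraries, and rose by a log2 fold change of 0.95 (adjusted p 0.0239). Chek1, which encodes the checkpoint kinase CHK1, had 21.5 and 27.1 CPM in 4OHT libraries, against 41.5 and 59.0 CPM in EtOH libraries, with a log2 fold change of -1.05 (adjusted p 0.0145). For both, the groups did not overlap. Of 22 tested cofactors, modifiers and inhibitors of p53, 7 rose and 1 fell in the Hdac2 line, with a median log2 fold change of 0.16. The 36.4% called are about the background share of 36.1%, so the count says nothing particular about this list, and its genes are given as single values. Among the 7 that rose were 3 acetyltransferase genes whose proteins acetylate p53 and histones. Ep300 had 161 and 198 CPM in 4OHT libraries, against 53.6 and 61.8 CPM in EtOH libraries, a log2 fold change of 1.64 (adjusted p 0.0108). Crebbp had 97.4 and 149 CPM in 4OHT libraries, against 32.3 and 30.0 CPM in EtOH libraries, a log2 fold change of 1.98 (adjusted p 0.0135). Kat2b had 21.8 and 24.8 CPM in 4OHT libraries, against 7.52 and 7.83 CPM in EtOH libraries, a log2 fold change of 1.60 (adjusted p 0.0110). Kat5, another acetyltransferase gene on the list, ran the other way and was not called. It had 30.0 and 31.0 CPM in 4OHT libraries, against 41.8 and 38.6 CPM in EtOH libraries, a log2 fold change of -0.40. Kat5 overlaps another gene with reads, so its counts are uncertain. Trp53bp2, which binds p53 and steers it towards death genes, rose by 0.84 on the log2 scale (adjusted p 0.0207). In Ep300, Crebbp, Kat2b and Trp53bp2 the 4OHT libraries were above the EtOH libraries. With EtOH, Crebbp, Kat2b, Ep300 and Mdc1 were called lower in the Hdac2 line than in the Hdac1 line by edgeR's test. Their log2 fold changes were -2.12, -1.41, -1.24 and -1.01 (adjusted p 0.0288, 0.0323, 0.0414 and 0.0448). Trp53bp2 was not called there (adjusted p 0.0752). In the Hdac1 line, 4OHT against EtOH, 0 genes of either list were called, as were 0% of all tested genes.

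Of 37 tested p53 targets outside the 33 genes, 2 rose and 5 fell in the Hdac2 line, with a median log2 fold change of 0.02. The 18.9% called are fewer than the 36.1% of all tested genes, of which 18.9% rose and 17.2% fell. Ptp4a3, a phosphatase, had 44.5 and 59.9 CPM in 4OHT libraries, against 279.9 and 157 CPM in EtOH libraries, a log2 fold change of -2.07 (adjusted p 0.00853). Prkab1, a subunit of the energy sensor AMPK, had a log2 fold change of -1.12 (adjusted p 0.0127), and Siva1, a gene of apoptosis, of -1.12 (adjusted p 0.0168). Tgfa, a ligand of the EGF receptor, had 42.6 and 38.6 CPM in 4OHT libraries, against 11.5 and 4.58 CPM in EtOH libraries, a log2 fold change of 2.31 (adjusted p 0.0180). In the Hdac1 line 0 of the 37 were called by edgeR's quasi-likelihood test, as were 0% of all tested genes. At an unadjusted p under 0.05 there were 8 of the 37, against 947 of all 14179 genes. Both 4OHT libraries of that line were above both EtOH libraries for 22 of the 37, against 15.8% of all tested genes, and the median log2 fold change was 0.39, against -0.02 over all genes. Whether the 37 genes vary independently of each other was not tested.

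p53 lowers cell cycle genes indirectly, since p21 keeps the RB family unphosphorylated and lets the DREAM complex silence them. Of 24 tested genes of this kind, 12 were lower and 2 higher with 4OHT in the Hdac2 line (58.3% called), with a median log2 fold change of -0.54. Over all tested genes 36.1% were called, 17.2% lower and 18.9% higher, with a median of -0.02. Ccnb1, the mitotic cyclin B1, had 31.9 and 28.1 CPM in 4OHT libraries, against 61.9 and 68.6 CPM in EtOH libraries, a log2 fold change of -1.12 (adjusted p 0.00868). Aurkb, a mitotic kinase, had 54.6 and 52.1 CPM in 4OHT libraries, against 104 and 122 CPM in EtOH libraries, a log2 fold change of -1.08 (adjusted p 0.00893). Cdc25c, the phosphatase that activates CDK1, had 9.16 and 10.5 CPM in 4OHT libraries, against 24.5 and 23.8 CPM in EtOH libraries, a log2 fold change of -1.30 (adjusted p 0.00955). These 3 had tight replicates and no overlap. Cell composition moved in the same comparison, as described above. Its part in these values, and that of p21, was not tested. Cenpe, a kinetochore motor on the same list, ran the other way, with 119 and 162 CPM in 4OHT libraries, against 29.9 and 31.6 CPM in EtOH libraries, a log2 fold change of 2.19 (adjusted p 0.00690), and Foxm1, a transcription factor of mitotic genes, rose too. Of the same 24 genes in the Hdac1 line, 0 were called by edgeR's quasi-likelihood test, as were 0% of all tested genes. At an unadjusted p under 0.05 there was 1 of the 24, against 947 of all 14179 genes, and the median log2 fold change was -0.15.

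**Figure D5:**
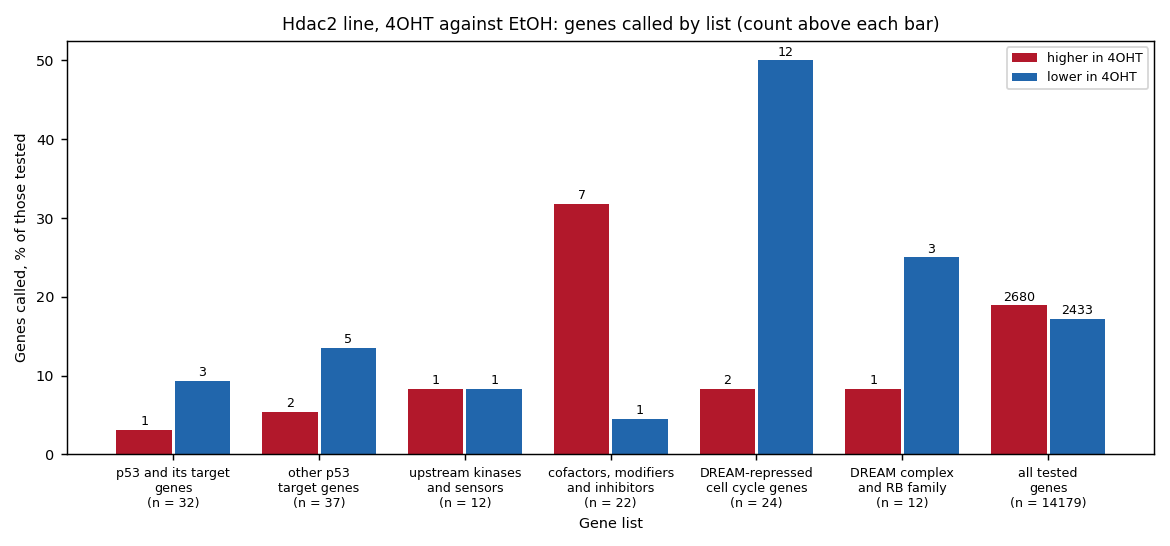
Share of tested genes called higher (red) or lower (blue) with 4OHT in the Hdac2 line (vertical axis, percent, from 0) for 6 lists of the p53 pathway and for all tested genes, with the number of genes above each bar. Of the 32 p53-list genes 1 was called higher and 3 lower, and of the 24 cell cycle genes 2 and 12.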

How the data were processed

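The authors deposited raw read counts of 41128 genes in 8 libraries, whose columns carry the names in the sample descriptions. Per the labels' protocols, total RNA went into an Agilent strand-specific kit. The submitters' processing notes name build mm10 and the tools Bowtie2 2.2.1, bcl2fastq 2.17.1.14, edgeR 3.8.5, R 3.1.0 and SAMtools 0.1.19, whose roles the notes leave out. The counter, its strand setting and the annotation release were not given in the sources used here. Reads of overlapping genes and of near-identical copies are therefore uncertain.

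Genes were filtered with filterByExpr (a count of 10), which left 14179 genes holding 99.9% of counts, and TMM factors scaled the libraries (edgeR 4.0.16 on R 4.3.3). The quasi-likelihood model, robust and with 1 mean for each group, used all 8 libraries and so 1 estimate of the spread. Within each comparison, p-values were adjusted over all tested genes by Benjamini-Hochberg and called under 0.05. Errors are SE of the log2 fold change. Levels are TMM-scaled CPM, and lengths are the union of exons in GENCODE M21. DESeq2 1.42.0, limma-voom 3.58.1, other scalings, no filter, the replicate number as a block, fits to the groups compared and leaving out each library were alternatives. Counting floors cover counting error only: without molecular identifiers, PCR copies are not independent molecules. Copies were sought with BLAST 2.17.0. The scripts were tested on simulated data.

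The 33 genes, the other lists and the motifs were chosen with earlier results of these data known. All 33 genes are given, in full where they were called, stand at the centre of the pathway or have an extreme level, and of each other list up to 4 called genes with the smallest adjusted p. Foxm1 was named outside this rule, after its values were seen.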

Additional observations from a re-analysis of the deposited data

How the results depend on the processing

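In the Hdac2 line, 4 genes were called as reported, 9 by DESeq2, 7 with no filter on low counts and 10 when only the groups compared were fitted, each including Plk3, Bbc3, Sesn1 and Fdxr. Leaving out 1 library at a time gave 0 to 9. In the Hdac1 line, 0 were called as reported, 1 by DESeq2, 0 by limma-voom (10 at an unadjusted p under 0.05 as reported), and 0 to 0 without a library. For the difference between the lines, 0 were called as reported, 3 by DESeq2, 2 with no filter (Bbc3 and Sesn2, both negative), and 0 to 3 without a library. For the EtOH libraries, 2 were called as reported, 8 by DESeq2, 1 by limma-voom, 5 with upper quartile scaling, 5 with no filter, 0 with only the groups compared, and 0 to 2 without a library. With the replicate number as a block, 3 genes were called in the Hdac2 line (Sesn1 was not), 0 in the Hdac1 line, 0 for the difference and 0 for the EtOH libraries. No label says whether the numbers pair the samples. Deviations of same-numbered libraries correlated at 0.26 between 4OHT and EtOH in the Hdac2 line and at -0.69 in the Hdac1 line. Between other groups the correlations were -0.12 to 0.16. With opposite signs in the 2 lines, these values do not decide whether the numbers are a pairing. A crossed pairing of the Hdac1 line alone, chosen after seeing the data, called 18 of the 32 genes and 945 of all genes. The cause of these changes was not tested. Counts under other settings, here and above, mostly stand without the share of all genes called under the same setting. A change in them is therefore no result about the list. Leaving out a library leaves a lone one in its group, which is assumed to vary like the other groups, so a call lost that way is no evidence about the library.

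Directions turned only for genes that were not called in that comparison. The log2 fold change of Cdkn1a in the Hdac2 line was -0.13 with upper quartile scaling, -0.11 with library size only, -8.7e-05 with no filter and -0.0031 with only the groups compared, and -0.52 to 0.84 without a library. Without a library, values in the Hdac2 line ran between -0.21 and 0.75 for Mdm2 and -0.47 and 0.22 for Ccng1. In the Hdac1 line they ran between -0.81 and 0.018 for Mdm4, -0.021 and 0.80 for Pmaip1, -0.26 and 0.037 for Sesn1, and -0.74 and 0.29 for Fdxr. For the difference they ran between -0.034 and 1.15 for Plk3. For the EtOH libraries they ran between -0.17 and 0.79 for Mdm2, -0.15 and 0.48 for Ccng1, -0.91 and 0.058 for Pmaip1, -0.68 and 0.50 for Plk3, -0.13 and 0.46 for Sesn1, and -0.65 and 0.26 for Fdxr. Upper quartile scaling moved the median log2 fold change of all genes in the Hdac2 line to -0.15 and that of the 32 genes to 0.03, and library size only to -0.14 and 0.04. With 2 libraries a group, the 95% interval of a fold change was wide, and a gene that missed the threshold is not shown to be unchanged.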

Other observations

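The DREAM complex and the RB family, through which p21 acts on cell cycle genes, were measured beside the p53 targets. Of 12 tested genes, 1 was higher and 3 lower with 4OHT in the Hdac2 line. The 33.3% called are close to the 36.1% of all tested genes, so the count is no result about the list. Rb1, the retinoblastoma gene, had 24.1 and 29.4 CPM in 4OHT libraries, against 13.5 and 10.2 CPM in EtOH libraries, a log2 fold change of 1.17 (adjusted p 0.0295). Rbbp4, a histone-binding subunit shared with HDAC1/2 complexes, had 241 and 203 CPM in 4OHT libraries, against 384 and 378 CPM in EtOH libraries, a log2 fold change of -0.78 (adjusted p 0.0191). E2f5, a repressive E2F, had a log2 fold change of -0.74 (adjusted p 0.0159), and Tfdp1, the dimer partner of the E2Fs, of -0.48 (adjusted p 0.0469). E2f5 and Rb1 overlap other genes with reads, so their counts are uncertain. Of the 12 in the Hdac1 line, 0 were called by edgeR's quasi-likelihood test, as were 0% of all tested genes. At an unadjusted p under 0.05 there were 0 of the 12, against 947 of all 14179 genes.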
